A study of Homo sapiens with 2 samples.

Results

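The genes described here encode the enzymes that build N6-threonylcarbamoyladenosine (t6A) and N6-isopentenyladenosine (i6A) at position 37 of tRNAs. The list was set by gene name and holds 10 of the 59026 genes with a transcript in the data: YRDC, OSGEP, TP53RK, TPRKB, LAGE3, GON7, OSGEPL1, TRIT1, CDK5RAP1 and CDKAL1. All 10 were found, with 72 of the 206696 transcripts listed, and none was lost to a filter. RNA-seq had been performed on total RNA of HEK293 Flp-In T-Rex cells after removal of rRNA, in a study of METTL8, the enzyme that makes 3-methylcytidine at position 32 of a pair of mitochondrial tRNAs. HEK293 cells are an established line derived from human embryonic kidney, and their Flp-In T-Rex derivative has a fixed genomic site for a tetracycline-regulated transgene. There was 1 group of 2 libraries, replicate 1 with 25158962 and replicate 2 with 27143860 estimated counts, from cells grown in high glucose DMEM with foetal calf serum and with no treatment listed. The labels do not say whether the libraries came from separate cultures, so the spread between them may be technical, and with 1 group no condition is compared.

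All 5 genes of a list of HEK293 markers (VIM, NEFM, NEFL, PAX2, LIN28B) were at 1 or more normalised counts in both libraries. The summed levels were 20589 and 18976 normalised counts, of which VIM alone gave 16406.5 and 15362.9. NEFM had 14.5 and 18.7 and PAX2 had 33.9 and 50.1, each below the fibroblast gene COL1A1 at 155.6 and 291.2. Of the lists for other cell types, 0 of 2 blood genes (PTPRC and CD3E, both listed at 0), 1 of 3 fibroblast genes, 1 of 2 liver genes and 1 of 2 muscle genes were at 1 or more in both libraries. Their summed levels were 156 and 292 normalised counts for fibroblasts, nearly all of it COL1A1 with DCN at 0, 8.46 and 3.71 for liver, all of it APOA1 with ALB at 0, and 11.6 and 6.86 for muscle (DES and ACTA1).

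Position 37 lies next to the 3′ side of the anticodon, and the bulky groups placed on its adenosine hold the anticodon loop open and steady the pairing of codon and anticodon. t6A is found in tRNAs that read codons starting with A. Its building block, threonylcarbamoyl-adenylate, is made by YRDC, and is transferred to the tRNA in the cytosol by the KEOPS complex, in which OSGEP is the catalytic subunit, TP53RK is an ATPase of the protein kinase fold, TPRKB binds TP53RK, and LAGE3 and GON7 are small accessory subunits. In mitochondria OSGEPL1 alone does the transfer. i6A is found in tRNAs that read codons starting with U and is made by TRIT1 in the cytosol and in mitochondria. CDK5RAP1 and CDKAL1 are radical methylthiotransferases: CDK5RAP1 acts on i6A of mitochondrial tRNAs and CDKAL1 on t6A of cytosolic tRNA Lys.

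The mitochondrial substrates are shown because base 36, the last of the anticodon, differs between the groups. Each sequence is the anticodon stem and loop of 17 bases, positions 27 to 43 in tRNA numbering, 5′ to 3′, read from the mitochondrial chromosome of GRCh38 with T for U, and the capitals mark bases 36 and 37. The first 5 are t6A tRNAs and the last 5 are i6A or ms2i6A tRNAs.
MT-TT: ccagtcttgTAaaccgg
MT-TN: cttagctgtTAactaag
MT-TK: ttaacctttTAagttaa
MT-TI: ttactttgaTAgagtaa
MT-TS2: aagaactgcTAactcat
MT-TS1: gttggcttgAAaccagc
MT-TF: atacactgaAAatgttt
MT-TW: agagccttcAAagccct
MT-TY: ttggactgtAAatctaa
MT-TC: ttgaattgcAAattcga
All 10 carry A at base 37. Base 36 is T in all 5 t6A tRNAs and A in all 5 i6A tRNAs. The METTL8 substrates are MT-TT (tRNA Thr, chrM:15912-15928, plus strand) and MT-TS1 (tRNA Ser(UCN), chrM:7475-7491, minus strand). Their loops of 7 bases, positions 32 to 38, differ by the substitution T36A alone (MT-TT base first). By the roles given above, OSGEPL1 acts on MT-TT and TRIT1 on MT-TS1. Modification itself was not measured in these data.

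Levels of different genes are compared below on a per-length scale: the estimated count of each transcript was divided by its length, scaled to 1000000 per library and summed per gene. Where values come in pairs, replicate 1 stands first and replicate 2 second, and ± gives the SD of the 2 libraries (n = 2). A pair of genes was called different when its order held in each library and its means lay further apart than the sum of the 2 SDs. A sign-flip test cannot pass 0.05 with 2 libraries, as its smallest two-sided p-value is 0.5. All 10 genes were expressed in both libraries, and their median level per length was 16.2. Over the 15537 protein-coding genes at 1 or more normalised counts in both libraries the median was 7.69 and the upper quartile 19.8. The 10 genes spanned from 3.604 for GON7 to 31.98 for YRDC.

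YRDC (chromosome 1, 37802945 to 37808208, minus strand, GRCh38 with GENCODE v44, as for all coordinates here) was the highest. It had 1662 and 1586 normalised counts, and a level per length of 32.4 and 31.5, or 31.98 ± 0.649, above 90.6% of the 26370 genes at 1 or more normalised counts in both libraries. The libraries thus differed little for the enzyme that starts the t6A pathway of both compartments. Its only listed transcript, YRDC-201, encodes a protein of 279 residues. Of its 1848 exonic bases, 532 (28.8%) overlap exons of C1orf122 on the opposite strand, which had 578 and 687 normalised counts. Whether the reads had been counted by strand is not given in the sources used here, so reads of this stretch cannot be told apart between the genes.

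The subunits of KEOPS did not stand at a common level. LAGE3 (chromosome X, 154477775 to 154479281, minus strand) had 663 and 872 normalised counts, and 24.7 and 33.1 per length, or 28.9 ± 5.92. OSGEP (chromosome 14, 20446401 to 20455089, minus strand) had 558 and 574 normalised counts, and 18.4 and 19.7 per length, or 19.1 ± 0.915. The catalytic subunit therefore varied less between the libraries than LAGE3, and LAGE3 was called higher, by 1.52-fold. TPRKB (chromosome 2, 73729104 to 73737400, minus strand) had 338 and 185 normalised counts, and 17.9 and 10.1 per length, or 14.0 ± 5.51. Replicate 1 was 1.82-fold above replicate 2, the widest gap among the 10 genes, and OSGEP and TPRKB were not called different. TP53RK (chromosome 20, 46684365 to 46689444, minus strand) had 410 and 346 normalised counts, and 5.73 and 4.88 per length, or 5.31 ± 0.604. GON7 (chromosome 14, 93202894 to 93207065, minus strand) had 106 and 117 normalised counts, and 3.39 and 3.82 per length, or 3.604 ± 0.299, and was the lowest of the 10 genes, all of it on GON7-201, as GON7-202 was listed at 0 in both libraries. In level per length, LAGE3 stood 8.03-fold above GON7, OSGEP stood 3.598-fold above TP53RK and TPRKB stood 2.63-fold above TP53RK, and all 3 pairs were called different. The same rule called 90.3% of all pairs of protein-coding genes different, so such calls are not particular to these subunits. With protein-coding transcripts alone the order of OSGEP and TP53RK was reversed and called, at 4.25 ± 0.183 and 5.31 ± 0.604. With transcripts of the canonical protein alone OSGEP was the higher again, at 3.89 ± 0.330 against 2.63 ± 0.231. In neither setting was TPRKB called different from TP53RK.

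OSGEPL1 (chromosome 2, 189746660 to 189763227, minus strand), the mitochondrial t6A synthase, had 335 and 307 normalised counts. Its level per length was 7.15 and 6.60, or 6.87 ± 0.390, between those of CDKAL1 and TP53RK. OSGEP and OSGEPL1 are paralogues: their canonical proteins of 335 and 414 residues were 31.7% identical over 334 aligned positions. In level per length OSGEP was 2.58-fold above OSGEPL1 in replicate 1 and 2.99-fold in replicate 2, a log2 ratio of 1.47 that was called different. This order rested on transcripts of OSGEP that are not annotated as protein-coding. With protein-coding transcripts alone, OSGEP stood at 4.12 and 4.38 per length and OSGEPL1 at 4.01 and 4.66, which gave a log2 ratio of -0.03, with OSGEP higher in replicate 1 and OSGEPL1 in replicate 2, and no call. With transcripts of the canonical protein alone the ratio was 1.04 and was called.

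TRIT1 (chromosome 1, 39838110 to 39883511, minus strand) had 1472 and 1112 normalised counts. Its level per length was 25.1 and 18.1, or 21.6 ± 4.94, next after LAGE3. Without the transcript TRIT1-203, described below, the gene had 1079 and 1112 normalised counts and 17.4 and 18.1 per length, so that the gap between the libraries closed. Set against OSGEPL1, the enzyme for the other METTL8 substrate, TRIT1 was 3.51-fold higher per length in replicate 1 and 2.74-fold in replicate 2, a log2 ratio of 1.65 that was called, and 1.37 without TRIT1-203.

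CDK5RAP1 (chromosome 20, 33358839 to 33401561, minus strand) had 890 and 793 normalised counts, and 20.3 and 16.7 per length, or 18.5 ± 2.55. CDKAL1 (chromosome 6, 20534457 to 21232404, plus strand) had 1052 and 940 normalised counts, and 12.3 and 11.3 per length, or 11.8 ± 0.727. The canonical proteins of these paralogues, 587 residues for CDK5RAP1 and 579 for CDKAL1, were 28.2% identical over 496 aligned positions. On the per-length scale the mitochondrial enzyme was the higher, by 1.57-fold, and the pair was called, with a log2 ratio of CDKAL1 to CDK5RAP1 of -0.65. The direction turned with the transcripts and the scale: the log2 ratio was 0.24 for normalised counts not divided by length and 1.20 for transcripts of the canonical protein alone, both called. With only transcripts whose version is the same in GENCODE v44 it was -0.21 and was not called. That filter removes the canonical transcript of CDK5RAP1 and no transcript of CDKAL1.

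From highest to lowest level per length the order was YRDC, LAGE3, TRIT1, OSGEP, CDK5RAP1, TPRKB, CDKAL1, OSGEPL1, TP53RK and GON7. Of the 45 pairs of these genes, 36 (80%) were called different, against 90.3% of all pairs of the 15537 protein-coding genes. Of the 9 pairs of neighbours in the order, 3 were called: CDKAL1 above OSGEPL1, OSGEPL1 above TP53RK and TP53RK above GON7. For all transcripts, from YRDC down to CDKAL1 no neighbours differed beyond their spread.

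**Figure D1:**
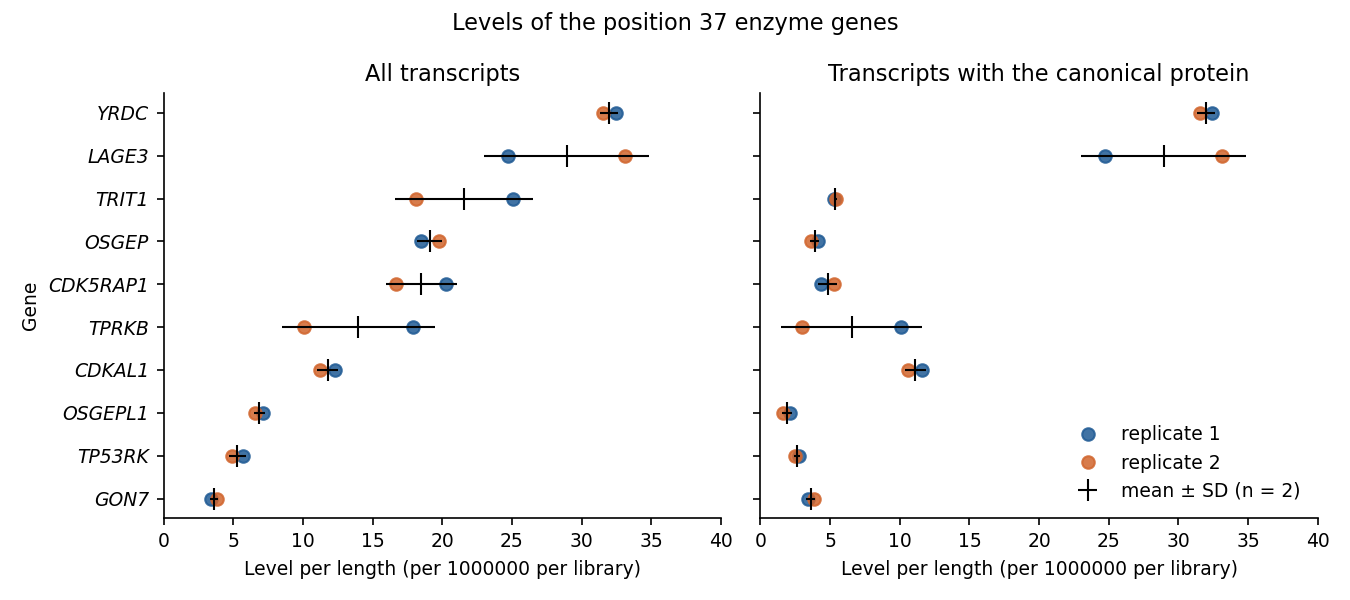
Level per length (x axis, per 1000000 per library) of the 10 genes (y axis, in order of mean level), for all transcripts on the left and for transcripts encoding the canonical protein on the right, with a point per library and the mean ± SD of the 2 libraries. YRDC and LAGE3 stay highest in both panels, while OSGEP drops from 19.1 to 3.89 and TRIT1 from 21.6 to 5.36. GON7 is lowest on the left and OSGEPL1 on the right.

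The share of a gene's estimated counts that fell on transcripts annotated as protein-coding differed widely among the 10 genes. Of the 72 transcripts, 30 are protein-coding and held 88.2% and 88.1% of their counts. The 15 retained intron transcripts, which keep an intron that other transcripts splice out, held 6.62% and 6.56%. The 8 transcripts annotated for nonsense-mediated decay, in which the reading frame ends early, held 2.57% and 3.84%, and 19 transcripts with no defined coding sequence held 2.66% and 1.55%. The median protein-coding share of the 10 genes was 95% and 92.6%, or 93.8 ± 1.70%. Among the 8 with several transcripts the median of the mean shares was 84.2%, against 91.3% for all 14209 protein-coding genes with several transcripts (quartiles 72.1% and 98.8%). YRDC, LAGE3, TP53RK and GON7 have only protein-coding transcripts listed, so their shares are 100% by annotation. They enter the median of the 10, and TP53RK and GON7 also that of the 8. Intervals of shares below are exact (Clopper-Pearson) at 95% and cover counting error only.

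OSGEP had the lowest protein-coding share: 40.4% in replicate 1 (interval 36.1% to 44.7%) and 36.2% in replicate 2 (32.4% to 40.1%), or 38.3 ± 2.995%. Only 9.08% of the protein-coding genes with several transcripts had a lower mean share. Its 7 retained intron transcripts held 40.2% and 42.9%, and its transcript for nonsense-mediated decay held 16.2% and 20.2%, so the make-up was alike in both libraries. Divided by length, the protein-coding share of OSGEP was lower still, at 22.3 ± 0.106%.

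TPRKB had protein-coding shares of 76.8% and 60.4% (68.6 ± 11.6%), with 11.3% and 28.1% on transcripts without a defined coding sequence. OSGEPL1 had 63.4% and 75.5% (69.4 ± 8.55%), and all of the rest was retained intron, 36.6% and 24.5%. CDK5RAP1 had 76.6% and 86.1% (81.4 ± 6.72%), with 15.6% and 5.08% on transcripts without a defined coding sequence. TRIT1 had 90.5% and 83.6% (87.0 ± 4.85%), with 6.90% and 13.2% on transcripts for nonsense-mediated decay. In these 4 genes the libraries lay further apart than in OSGEP. CDKAL1 had 99.5% and 99.1%. YRDC, LAGE3, TP53RK and GON7 had 100% in both libraries, which the annotation fixes, as they list only protein-coding transcripts.

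**Figure D2:**
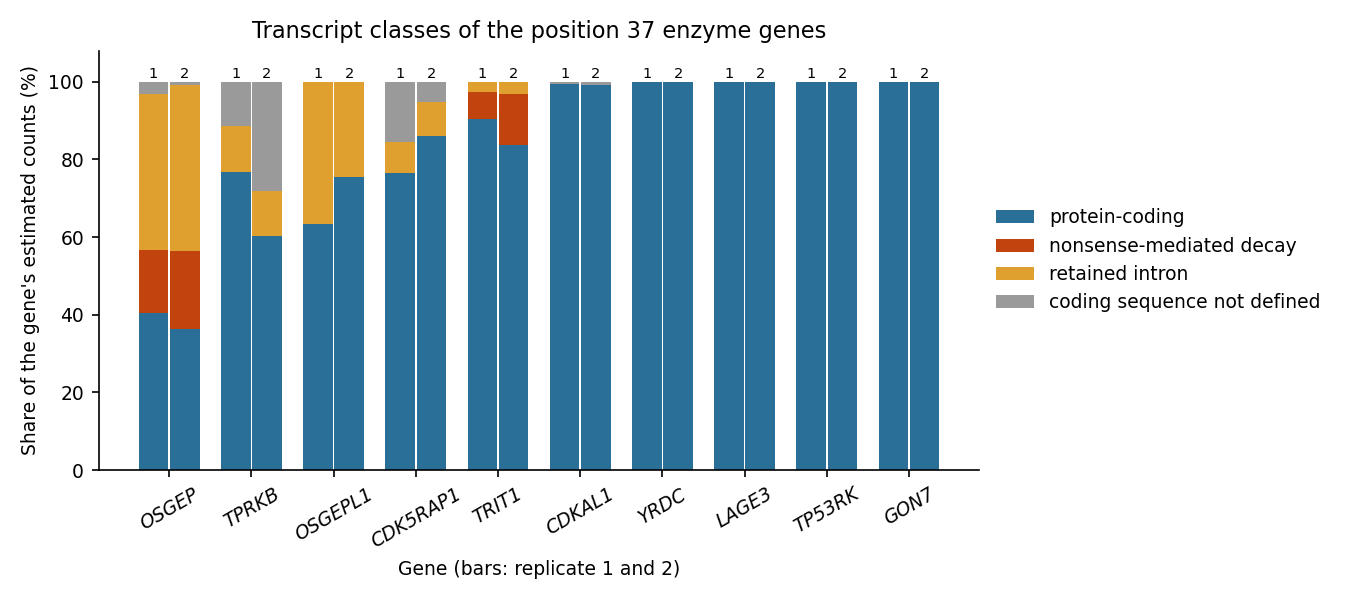
Share of each gene's estimated counts (y axis, percent) by annotated transcript class, with a bar for replicate 1 and a bar for replicate 2 of each gene, from the lowest to the highest mean protein-coding share. OSGEP has the smallest protein-coding part in both libraries, at 40.4% and 36.2%, and 5 genes are at or above 99%. Of these 5, all but CDKAL1 have only protein-coding transcripts listed.

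A protein-coding transcript need not encode the canonical protein. In the 10 genes the share on transcripts that do was 100% in both libraries for YRDC and LAGE3, which have 1 listed transcript each. It was 100% for GON7 and 97.6% for CDKAL1 in both libraries. It was 60.0% and 61.7% for TP53RK, 50.4% and 67.2% for TRIT1, 40.4% and 34.2% for OSGEP and 55.1% and 29.0% for TPRKB. CDK5RAP1, with 28.2% and 37.9%, and OSGEPL1, with 33.4% and 27.8% had the lowest means. The transcripts behind these shares are described next, some with junction sequences that differ between the transcripts compared. Such a junction can also be in other transcripts of the gene. In 9 of the 10 genes, all but CDKAL1, the canonical transcript has another version in GENCODE v44 than in the tables, so the models given may differ from those the counts were made with.

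TP53RK had a pair of transcripts with a steady balance. TP53RK-202, the canonical transcript, had 246 and 213 normalised counts, and TP53RK-201 had 164 and 132. TP53RK-202 thus held 60.8 ± 1.23% of the counts and TP53RK-201 held 39.2 ± 1.23%. Exon 1 of TP53RK-201 runs 5 bases further, to position 46689127 instead of 46689132, before the same second exon start. The frame then shifts: TP53RK-201 encodes 121 residues, of which the first 95 are those of the canonical 253. Both sequences cross this junction in the coding sequence, 12 bases to each side, read from chromosome 20 of GRCh38 on the minus strand, and the capitals mark the added bases, which are the start of the intron in TP53RK-202.
TP53RK-202: gtcgccgcgctggaatatctgccc
TP53RK-201: gtcgccgcgctgGTAAGgaatatctgccc
Of the 1963 different 50-base words of TP53RK-201, 52 (2.65%) are absent from TP53RK-202, so few reads can tell it from its partner. In shares divided by length the transcripts were level, with 49.6 ± 1.29% for TP53RK-202, and TP53RK-201 was the higher in replicate 1.

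In CDK5RAP1 a shorter protein led. CDK5RAP1-210 had 403 and 342 normalised counts, or 44.3 ± 1.52% of the gene, and the canonical CDK5RAP1-202 had 251 and 300, or 33.1 ± 6.81%. The first was higher in both libraries, and it was higher also in shares divided by length, 38.1 ± 1.34% against 26.6 ± 7.29%. In replicate 2 the counting intervals of the shares overlapped (39.8% to 46.6% and 34.6% to 41.2%), and 47 of the 1881 words of 50 bases in CDK5RAP1-210 (2.50%) are absent from CDK5RAP1-202. Exon 2 of CDK5RAP1-210 spans 33396761 to 33396936 and lacks 148 bases that CDK5RAP1-202 has at the 5′ side of the same exon, which ends at 33397084. The protein of CDK5RAP1-210 has 497 residues, identical to the last 497 of the canonical 587, so 90 residues are absent at its start. The retained intron transcript CDK5RAP1-207 had 53.3 and 53.2 normalised counts, 6.35 ± 0.513% of the gene.

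CDKAL1 also had 2 leading transcripts, but these encode the same protein. CDKAL1-202 had 562 and 469 normalised counts, or 51.6 ± 2.49%, and CDKAL1-201 had 465 and 449, or 45.9 ± 2.52%. CDKAL1-202 had the higher share in both libraries, by more than the sum of the SDs, but in replicate 2 the counting intervals of the shares overlapped. CDKAL1-201 has additional non-coding exons at 20534457 to 20534574 and 20535351 to 20535394, and both transcripts encode the 579 residues of the canonical protein. Only 3 of the 3066 words of 50 bases in CDKAL1-202 are absent from CDKAL1-201.

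**Figure D3:**
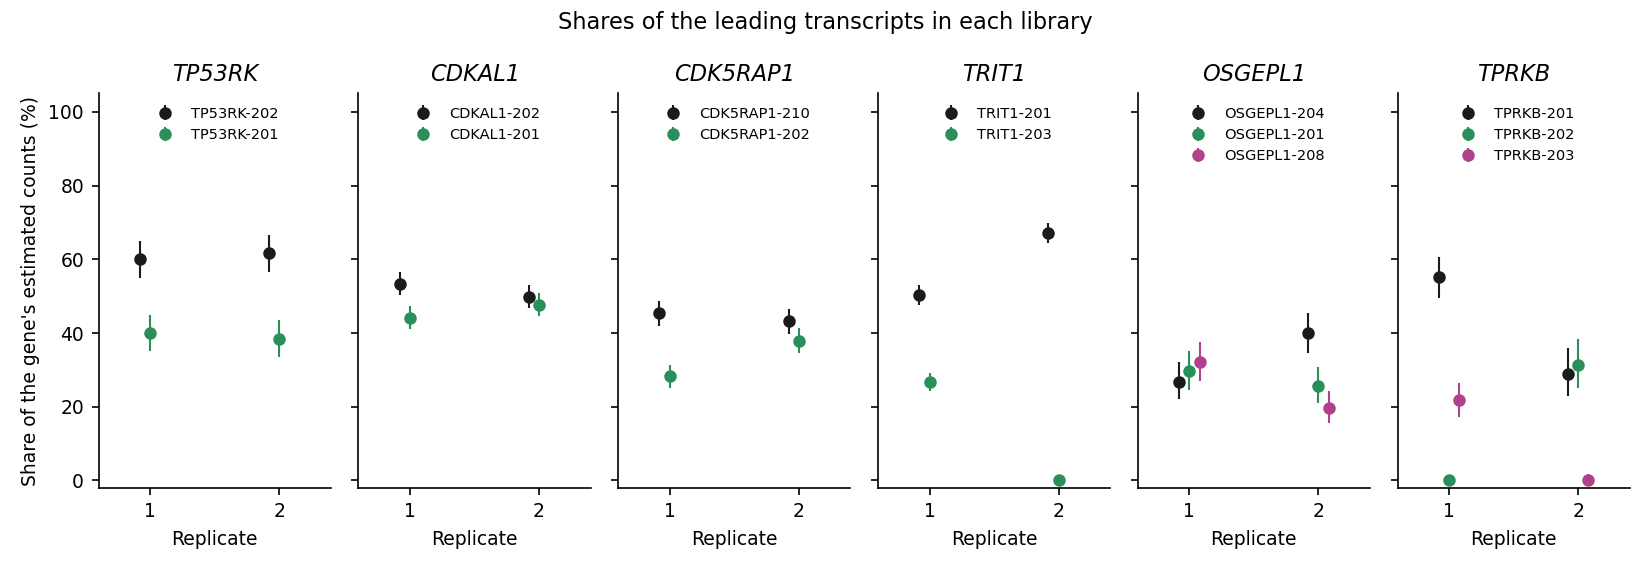
Share of the gene's estimated counts (y axis, percent) of the leading transcripts of 6 genes in replicate 1 and replicate 2 (x axis), with exact 95% intervals as error bars. The TP53RK transcripts keep their order and distance in both libraries, while TRIT1-203 goes from 26.7% to 0 and TPRKB-202 from 0 to 31.4%. TPRKB-203, which shares most of its 50-base words with TPRKB-202, goes from 21.7% to 0.005%.

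The largest difference in normalised counts between the libraries, over the 72 transcripts, was in TRIT1. The canonical TRIT1-201 had 741 and 747 normalised counts, which was 50.4% and 67.2% of the gene. TRIT1-203 had 392 normalised counts in replicate 1, 26.7% of the gene, and was listed at 0 in replicate 2, where 3 counts would be 0.2502%. TRIT1-203 lacks exons 2 and 3 of TRIT1-201, at 39857277 to 39857417 and 39853970 to 39854068, starts exon 6 of TRIT1-201 6 bases later, and encodes 385 residues instead of 467. Its junction from exon 1 to exon 4 is in no other listed TRIT1 transcript and is shown beside the junction of exons 1 and 2. Each run has the last 15 bases of exon 1 in lower case and the first 15 of the next exon in capitals (chromosome 1, minus strand, coding sequence).
TRIT1-201: gctgactccatgcagGTCTATGAAGGCCTA
TRIT1-203: gctgactccatgcagCCCCAGGAGATGGGC
Of the 1802 words of 50 bases in TRIT1-203, 94 (5.22%) are absent from TRIT1-201, and these are in no other TRIT1 transcript. Of the 5002 words of TRIT1-201, 3294 (65.9%) are absent from TRIT1-203, but each of them is in some other TRIT1 transcript. The other transcripts with at least 5% of the gene were closer between the libraries. TRIT1-214, which lacks exon 7 at 39847548 to 39847660 and encodes 163 residues, had 99.1 and 102.5 normalised counts. TRIT1-215, with 85 residues, had 98.8 and 80.0, and TRIT1-216, annotated for nonsense-mediated decay, had 84.1 and 74.6. Divided by length, the leading transcript of TRIT1 was TRIT1-203 in replicate 1 with 30.5% and TRIT1-201 in replicate 2 with 30.04%, next to TRIT1-215 with 29.8%.

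OSGEPL1 had no clear leader. OSGEPL1-204 had 89.7 and 122.8 normalised counts, or 33.4 ± 9.39%, the canonical OSGEPL1-201 had 99.2 and 78.4, or 27.6 ± 2.85%, and the retained intron transcript OSGEPL1-208 had 107.8 and 60.1, or 25.9 ± 8.89%. OSGEPL1-208 was first in replicate 1 and OSGEPL1-204 in replicate 2, and no pair of the 3 was apart by more than its spread. OSGEPL1-204 skips the coding exon 7 of OSGEPL1-201, 72 bases at 189752653 to 189752724, and encodes 364 residues, all of them the start of the canonical 414. Shown are the junctions into and out of this exon in OSGEPL1-201 (chromosome 2, minus strand), 15 bases of each exon, the second in capitals.
OSGEPL1-201 exons 6 and 7: cattatgattgcatgGAATGGTATTGAAAG
OSGEPL1-201 exons 7 and 8: ccgctatgaaccaaaATGTCCTCTTGGAGT
OSGEPL1-208 has these junctions too, but joins exons 4 and 5 of OSGEPL1-201 in a block from 189753916 to 189754345 that keeps the intron. OSGEPL1-207, which encodes the canonical protein from another transcript, had 12.7 and 6.79 normalised counts.

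In TPRKB the libraries named different protein-coding transcripts. The canonical TPRKB-201, with 175 residues, had 186 and 53.8 normalised counts, or 55.1% and 29.0% of the gene. TPRKB-202 was listed at 0 in replicate 1, where 3 counts would be 0.940%, and had 58.2 normalised counts, 31.4%, in replicate 2. TPRKB-203 went the other way, with 73.3 normalised counts, 21.7%, in replicate 1 and 0.00927 in replicate 2. TPRKB-202 and TPRKB-203 encode the same protein of 214 residues, and both have an additional coding exon of 117 bases, 73732584 to 73732700. Their sum was 73.3 and 58.2 normalised counts, closer than either transcript alone. Exon 2 of TPRKB-202 is longer by 3 bases. Of the 770 words of 50 bases in TPRKB-202, 51 (6.62%) are absent from TPRKB-203, and 48 of 767 (6.26%) the other way. Each of these words is in some other TPRKB transcript, so few reads can tell the pair apart. The junction that skips this exon and those that enter and leave it are shown (chromosome 2, minus strand), with 15 bases of each exon, the second in capitals.
TPRKB-201: ataaatcctacagtgATTGTTGATCCATTT
TPRKB-202 and TPRKB-203, into the exon: ataaatcctacagtgTTTCACTCTTGTTGC
TPRKB-202 and TPRKB-203, out of the exon: ttgctgggattacagATTGTTGATCCATTT
The retained intron transcript TPRKB-210 had 29.8 and 6.74 normalised counts, over 2-fold apart, and a mean share of 6.24%. TPRKB-204, TPRKB-206, TPRKB-207 and TPRKB-208, which are not protein-coding either, had mean shares between 5.44% and 5.89%. TPRKB-206 also has the junctions into and out of the exon, and TPRKB-207 and TPRKB-210 have that shown for TPRKB-201.

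OSGEP-201, the canonical OSGEP transcript, had 226 and 197 normalised counts, or 37.3 ± 4.40% of the gene. OSGEP-207, annotated for nonsense-mediated decay, had 90.7 and 116, or 18.2 ± 2.77%. The exon that OSGEP-201 has at 20449171 to 20449266 begins 35 bases earlier in OSGEP-207, at 20449301. The retained intron transcripts OSGEP-208, OSGEP-202 and OSGEP-204 had 9.77%, 9.22% and 8.90% on average. The junctions that tell OSGEP-201 and OSGEP-207 apart are in no other listed OSGEP transcript (chromosome 14, minus strand, 15 bases of each exon, the second in capitals).
OSGEP-201: ggaggaaatacgcagGTGATTGCATACTCG
OSGEP-207: ggaggaaatacgcagACTTGGGGTTTCATG
In shares divided by length OSGEP-207 was the higher in both libraries, with 22.9% and 27.9% against 22.3% and 18.5% for OSGEP-201, a difference within the sum of the SDs (25.4 ± 3.50% and 20.4 ± 2.71%).

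With no treatment listed, the difference between the libraries gives the spread used for the levels above. As the libraries may not be separate cultures, this spread may be technical only. Of the 10 genes, 0 were over 2-fold apart in normalised counts, where 5.76% of the 19110 genes averaging 10 or more normalised counts were. Of the 10, 7 were lower in replicate 2. The share of all genes that were lower was not counted, so no direction particular to these genes can be read from this. Of the 45 transcripts of the 10 genes that averaged 10 or more normalised counts, 13 (28.9%) were over 2-fold apart, against 30.6% of all 67167 such transcripts, so these genes were close to the rest. Of those 13, TPRKB gave 6, CDK5RAP1, OSGEP and TRIT1 gave 2 each, and OSGEPL1 gave 1. Among the 8 genes with several transcripts, 6 (75%) had the same leading transcript in both libraries, near the 78.5% of 16735 genes, and OSGEPL1 and TPRKB did not. Over all 72 transcripts, 13 (18.1%) had no count in either library and another 13 (18.1%) had none in 1 library. Of all 206696 listed transcripts, 101920 were above 0 in replicate 1 and 106754 in replicate 2. How many of them were at 0 in both libraries or in 1 was not counted.

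**Figure D4:**
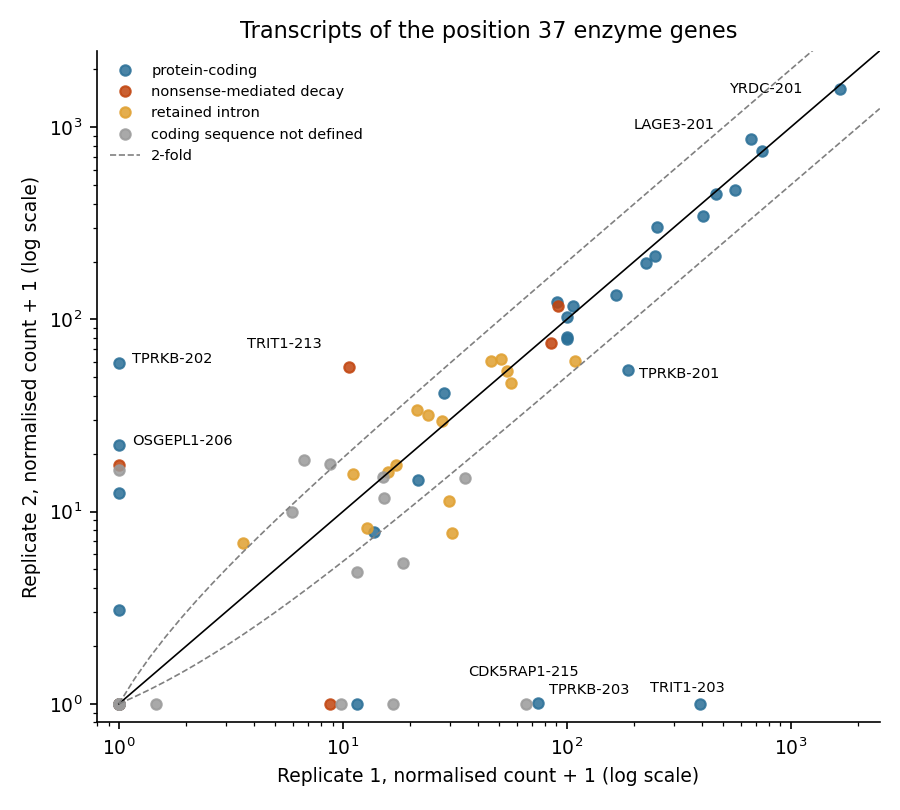
Normalised count + 1 of the 72 transcripts in replicate 1 (x axis) and replicate 2 (y axis), both on log scales, coloured by annotated class, with the line of equal counts and dashed lines at 2-fold. Transcripts such as YRDC-201 and LAGE3-201 lie near the line, whereas TRIT1-203, TPRKB-202 and TPRKB-203 lie on or near an axis, at about 0 in 1 library.

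Other genes of the 10 overlapped neighbours less than YRDC did. OSGEPL1 shares 289 exonic bases (8.07%) with OSGEPL1-AS1 and 45 (1.26%) with ANKAR on the opposite strand, OSGEP shares 144 (2.86%) with ENSG00000258515 on the opposite strand, and TP53RK shares 72 (2.26%) with SLC13A3 on the same strand. OSGEPL1-AS1 had 4.65 and 9.004 normalised counts, far under OSGEPL1. Words of 50 bases shared in the same orientation with transcripts of other genes made up 1.10% of TP53RK, 0.870% of CDKAL1, 0.438% of OSGEP and 0.376% of TPRKB, and 0 of the other 6 genes. In the reverse orientation 24.3% of the words of YRDC were in C1orf122, 6.20% of those of OSGEPL1 in OSGEPL1-AS1 and 1.79% of those of OSGEP in ENSG00000258515, the overlaps given above.

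A further 8 genes act on the base at position 37 of other tRNAs: TRMT5 methylates guanosine there, TYW1, TRMT12, TYW3, LCMT2 and TYW5 turn that base into wybutosine in tRNA Phe, TRMO methylates t6A, and ADAT1 deaminates the adenosine of tRNA Ala. All 8 were expressed in both libraries. Their median level per length was 6.65, from 2.55 ± 0.458 for TYW5 to 15.4 ± 2.64 for TYW3, beside the 16.2 of the t6A and i6A genes. ADAT1 stood at 9.03 ± 0.918, TYW1 at 7.82 ± 0.585, TRMT5 at 7.001 ± 1.57, TRMT12 at 6.29 ± 0.470, LCMT2 at 3.95 ± 0.580 and TRMO at 2.87 ± 0.257. METTL8, whose product acts in the same loops, stood at 12.8 ± 2.88 per length, between TPRKB and CDKAL1 and apart from neither by more than the spread.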

How the data were processed

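For each transcript the deposited tables held an estimated count, which the authors obtained from RSEM. They also held a deposited normalised signal (here normalised count), equal to that estimated count over a size factor of 0.945 in replicate 1 and 1.08 in replicate 2. The submitters' processing notes name FastQC, STAR 2.7.0d, RSEM 1.3.3 and R 3.6.3, and the study's methods name GRCh38. The strand setting is not given in the sources used here. A second table per library, limited to METTL8 transcripts, was not used.

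Transcripts were looked up in GENCODE v44 by identifier, ignoring the version (202217 of 206696, 173547 with the same version, 96.9% and 96.8% of counts). Counts were summed per gene. Levels per length used GENCODE v44 lengths without an effective length correction. Proteins were translated from annotated coding sequences and aligned with Biopython 1.88. Words of 50 bases were compared with all GENCODE v44 transcripts of other genes. Other steps used Python 3.11.15, pandas 2.3.3, NumPy 2.4.6 and SciPy 1.17.1. Anticodon loops and junctions were read from GRCh38.

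The members, the lists of genes and the rule for named transcripts (a mean share of at least 5%, and those with the canonical protein) were chosen with earlier results of these data known. As there was 1 group, no count model or test between groups was used. The 2-fold count was tested on simulated data. The labels CDK5RAP1-215, OSGEPL1-206 and TRIT1-213 in the plot of both libraries, and the transcript left out of TRIT1, were picked with their values in view. The alternatives were other scales, lengths, filters, transcript classes and each library alone.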

Additional observations from a re-analysis of the deposited data

How the results depend on the processing

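Of the alternatives for ratios, calls and counts, other than each library alone, 25 were the same, 5 moved, 3 were reversed and 1 was weaker. For a ratio, the same means that the direction and the side of the call held. For a count it means within a set fold limit of the main value, and for the median share within 1 SD. The pairs called different numbered 16 of 21 with transcripts of the same version in GENCODE v44, which removes YRDC, LAGE3 and GON7, and between 32 and 40 of 45 elsewhere. The log2 ratio of OSGEP to OSGEPL1 was -0.028 with protein-coding transcripts alone, against 1.47. The log2 ratio of CDKAL1 to CDK5RAP1 was 0.24 with normalised counts not divided by length, -0.21 with the same version only and 1.20 with the canonical protein only (added after seeing the data), and the cause was not tested beyond the choice of transcripts and scale. The log2 ratio of TRIT1 to OSGEPL1 ran from 1.37 (without TRIT1-203, also added) to 2.01. The median protein-coding share was 89.9% for length-normalised values, 67.2% with the same version only and 98.2% with transcripts for nonsense-mediated decay counted as coding. The same-version filter removes the canonical transcript of every gene but CDKAL1, and YRDC, LAGE3 and GON7 as a whole. It could thus only lower this median. Transcripts over 2-fold between the libraries were 2 of 16 at a mean of at least 100. Length-normalised values gave the same leading transcript in 5 of 8 genes. Each library alone gave log2 ratios from 1.37 to 1.58 (OSGEP to OSGEPL1), from -0.72 to -0.57 (CDKAL1 to CDK5RAP1) and from 1.46 to 1.81 (TRIT1 to OSGEPL1), and medians from 92.6% to 95%. With 1 library no call can be made. Of the shares of single genes, 33 alternatives stayed within 1 SD and 17 moved further. Some of the 33 could not move. The shares of YRDC, LAGE3 and GON7 and the protein-coding share of TP53RK were 100% in every setting. No paired analysis was possible because there is 1 group. Estimated counts were lowest in GON7, OSGEPL1 and TPRKB, and depth limits their values most.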
